A study of Mus musculus with 9 samples.

Results

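The genes described here are 7 transcription factors that set whether blood progenitors divide or mature: Myb, Myc, Mycn, Max, Mxd1, Mxd4 and Mxi1. They were chosen by name, and every probe set of the array annotated to exactly 1 of them was taken, which gave 15 probe sets of the 20380 that carry a single gene and 7 of the 12393 genes on the array. All 7 genes passed the filter on low values, and 14 of their 15 probe sets did. Primary mouse cells of the megakaryocyte lineage, the lineage that makes platelets, had been grown from bone marrow or fetal liver with thrombopoietin and sorted on high surface CD41 and on size by forward scatter. Their RNA was measured on 9 Affymetrix MOE430A arrays from 4 stages, with 2 arrays each for MKP, MK3 and MK4 and 3 arrays for MK6. The series text names culture days 3, 4 and 6, and no label gives a day for MKP. The labels give no genotype, strain, age or sex, and they do not say which tissue a given array came from. They also leave unsaid whether replicate arrays stem from different cultures. The p-values therefore measure the spread between these arrays only. Replicate 1 of MK6 is the array titled MK6 alone, and replicates 2 and 3 are the arrays titled replicate1 and replicate2.

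Myb binds DNA as a single protein and is needed for blood progenitors to multiply. In mice, reduced Myb activity is known to raise megakaryocyte and platelet numbers. Myc and Mycn bind DNA as heterodimers with Max at E-box sequences and activate genes of ribosome production, nucleotide synthesis and growth. Mxd1, Mxd4 and Mxi1, the Mad proteins, also pair with Max at E-boxes, but recruit Sin3 corepressors and shut genes down, and Mad proteins commonly replace Myc as cells leave the cycle.

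Promoter windows are shown first for the 2 members that fell together with an entry in the RefSeq promoter table (Myb and Mxd1), for Mycn and for Mxd4, which alone of the members with a window held the E-box CACGTG. The table had windows for 6 of the 7 members, and Myc is named only. Each line gives the 250 bases before the start of the gene in 5′ to 3′ direction of the gene, on the minus strand of build GRCm38.p6. Capitals mark, in Mxd1, a match to the Myb core AACNG. In Mycn they mark matches to the E2F-type sequence TTTNNCGC, and in Mxd4 the E-box CACGTG. The Myb window holds none of the 3 motifs and has no capitals. The windows are chr10:21160985-21161234 for Myb, chr6:86669160-86669409 for Mxd1, chr12:12941837-12942086 for Mycn and chr5:34187711-34187960 for Mxd4.
Myb: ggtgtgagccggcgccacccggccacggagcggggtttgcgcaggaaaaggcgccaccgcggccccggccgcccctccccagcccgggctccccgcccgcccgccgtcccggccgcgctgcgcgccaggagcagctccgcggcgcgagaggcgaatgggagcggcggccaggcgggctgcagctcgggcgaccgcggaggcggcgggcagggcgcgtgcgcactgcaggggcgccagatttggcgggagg
Mxd1: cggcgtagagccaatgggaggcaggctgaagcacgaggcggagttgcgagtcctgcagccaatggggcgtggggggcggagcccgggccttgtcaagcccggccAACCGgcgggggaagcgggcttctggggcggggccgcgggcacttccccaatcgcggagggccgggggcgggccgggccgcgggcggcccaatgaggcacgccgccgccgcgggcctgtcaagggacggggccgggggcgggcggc
Mycn: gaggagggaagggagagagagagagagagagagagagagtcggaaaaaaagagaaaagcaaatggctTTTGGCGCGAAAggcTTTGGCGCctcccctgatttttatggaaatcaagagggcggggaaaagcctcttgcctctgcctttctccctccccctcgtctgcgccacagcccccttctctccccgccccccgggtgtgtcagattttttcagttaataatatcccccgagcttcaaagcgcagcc
Mxd4: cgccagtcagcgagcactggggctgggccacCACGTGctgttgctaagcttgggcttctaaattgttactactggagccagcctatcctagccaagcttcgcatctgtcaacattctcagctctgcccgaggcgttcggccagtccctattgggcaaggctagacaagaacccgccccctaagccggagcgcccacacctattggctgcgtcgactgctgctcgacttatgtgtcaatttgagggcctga

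The motifs were searched on both strands. CACGTG occurred in 6.02% of the 32851 promoter windows of this length and, among the members, once, 219 bases before the Mxd4 start. The short Myb core AACNG was in 74.2% of all windows. Mycn, Max and Mxd4 held it, as did 1 of the 3 windows of Mxi1, and in Mxd1 it lay 146 bases before the start. TTTNNCGC was in 4.28% of windows, and Mycn held it 3 times, at 183, 179 and 168 bases before its start, with the first pair of matches overlapping. A match describes letters in a window and is not a measured binding site.

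The signals are MAS5 values, an intensity that summarises the probes of each probe set, here multiplied so that every array had the same trimmed mean. They can be compared between arrays for 1 probe set, but not between probe sets. Differences are given in log2 units, on the scale log2(scaled signal + 15.2), and a gene passed the test where its p from limma, adjusted over all 9397 genes tested, was below 0.05. The filter level was a scaled signal of 46.7. The actin control, read as its 3′ probe set over its 5′ probe set, was 1.49, 1.33 and 3.21 on MK6 replicates 1, 2 and 3, and it lay between 0.957 and 1.09 at the earlier stages. The same ratio for Gapdh was 0.996, 1.13 and 3.27 on the MK6 replicates and 0.805 to 0.970 at the earlier stages, so that replicate 3 stood apart on both controls. Replicates 1 and 3 were also dim as deposited, with trimmed means of 103 and 102, against 184 on MK6 replicate 2 and 123 to 221 at the earlier stages. The part of these array differences in the results that follow was not tested. Of 13 megakaryocyte markers on the array, 12 to 13 were above the filter level on each MK6 array and 13 on each MKP array.

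Myb and Myc, 2 factors that drive proliferation in progenitors, were lower in MK6 than in MKP cells, and so was the repressor Mxd1. Mycn, which like Myc activates growth genes, was at 1.18 and did not pass the test. Max, Mxd4 and Mxi1 did not pass it either. In all, 3 of the 7 members passed in MK6 against MKP, all of them lower, where 5.69% of all genes tested passed (535 genes, 259 higher and 276 lower). Mxd1 reached the test only through both MKP arrays and 1 MK4 array, so its place in this count follows in part from the filter. The groups of arrays did not overlap for these 3 genes, as for 18.8% of all genes with every MK6 array lower, and an unadjusted p below 0.05 was met by 23.8% of all genes. The median difference of the 7 members was 0.039, against 0.126 for all genes tested. All 3 calls were lost without MKP replicate 1, without MKP replicate 2 or without MK6 replicate 3, and their sizes then stayed between −3.11 and −1.83 log2 units.

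**Figure D1:**
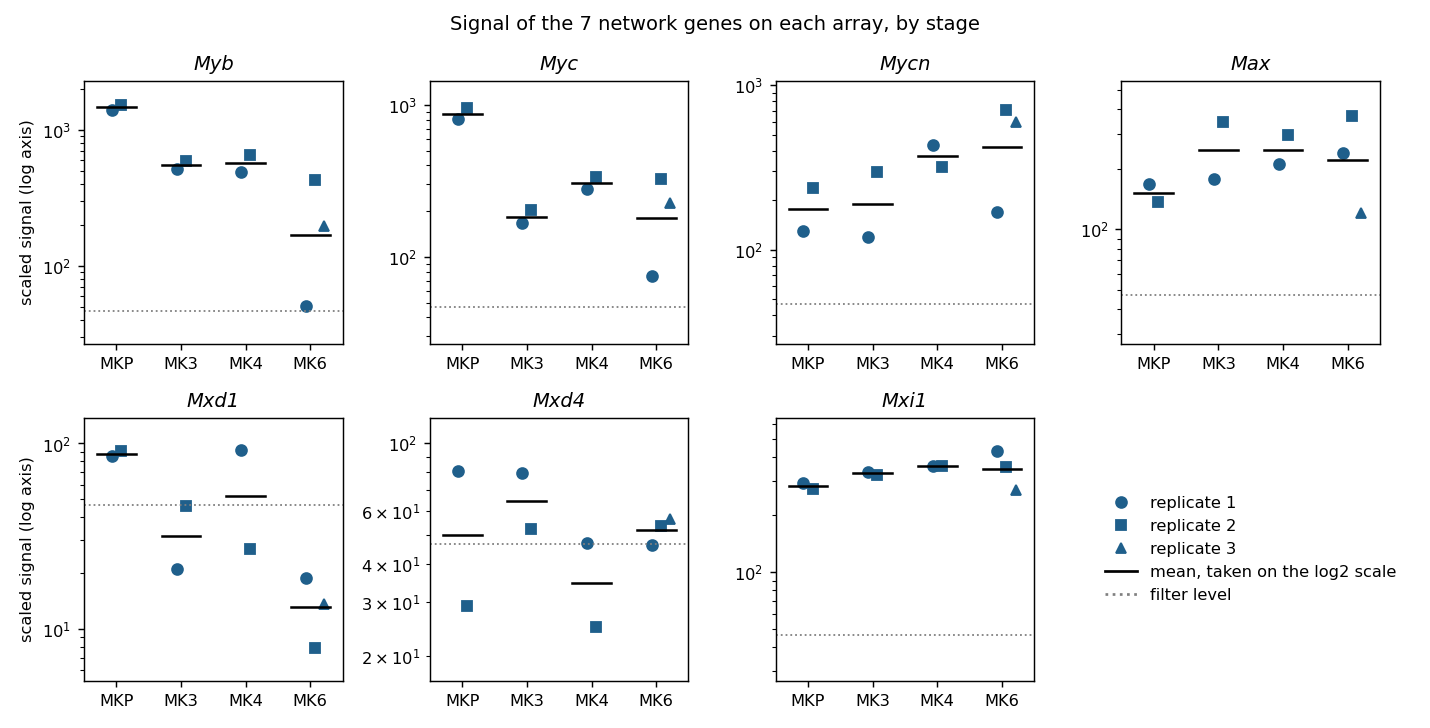
Scaled signal (log axis) of the probe set used for each of the 7 genes, 1 panel a gene, with 1 point an array at the stages MKP, MK3, MK4 and MK6. Black bars are stage means taken on the log2 scale and the dotted line is the filter level of 46.7. Myb and Myc are highest on both MKP arrays, MK6 arrays scatter widely for Myb, Myc and Mycn, and Mxi1 stays between 270 and 431 on all 9 arrays.

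Myb was highest in MKP, intermediate in MK3 and MK4 and lowest in MK6. On probe set 1421317_x_at, the one used for the gene, its scaled signal was 1396 and 1515 in MKP, 511 and 593 in MK3, 489 and 657 in MK4, and 50.4, 424 and 196 in MK6. Both MKP arrays lay above every later array, MK3 and MK4 overlapped, and all 3 MK6 arrays lay below the lowest MK4 array. Of all genes, 9.27% had every later array below both MKP arrays, and 9.82% had every MK6 array below both MK4 arrays. The suffix x in this probe set's name means that some of its probes can also match other transcripts. The mean was 7.51 ± 1.38 log2 units in MK6 (SD, n = 3) and 10.52 ± 0.083 in MKP (SD, n = 2), a difference of −3.01 ± 0.58 (SE, adjusted p = 0.0175), or 0.124 of the MKP level on this scale. A bulk array cannot tell fewer cells of a type from less RNA per cell.

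The spread between the MK6 arrays is large for Myb, and replicate 1, at 50.4, lies close to the filter level. Leaving arrays out therefore moved the size of the difference more than its direction. It was −2.27 without MK6 replicate 1, −3.64 without MK6 replicate 2 and −3.11 without MK6 replicate 3, with adjusted p of 0.0070, 0.0025 and 0.0588. With MK6 replicate 2 as the only MK6 array, it was −1.74 (adjusted p = 0.0484), in a fit that assumes a lone array to vary like the other stages. Without MKP replicate 1 the adjusted p was 0.156 and without MKP replicate 2 it was 0.155.

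The other 2 probe sets of Myb, 1422734_a_at and 1450194_a_at, gave the same direction. The scaled signals of 1422734_a_at were 8.7, 63.1 and 33.7 in MK6, against 248 and 492 in MKP. Those of 1450194_a_at were 32.8, 67.5 and 74.6 in MK6, against 293 and 418 in MKP. The groups did not overlap on either probe set, where 18.8% of all genes had every MK6 array below both MKP arrays. The differences were −3.02 ± 0.51 and −2.37 ± 0.35 (SE). Their limma p adjusted over 14516 probe sets was 0.0113 and 0.0063, where 6.91% of all probe sets passed. Over the 9 arrays, the 3 probe sets of Myb correlated with each other at r = 0.93 to 0.96, a description over arrays that share their stages.

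**Figure D2:**
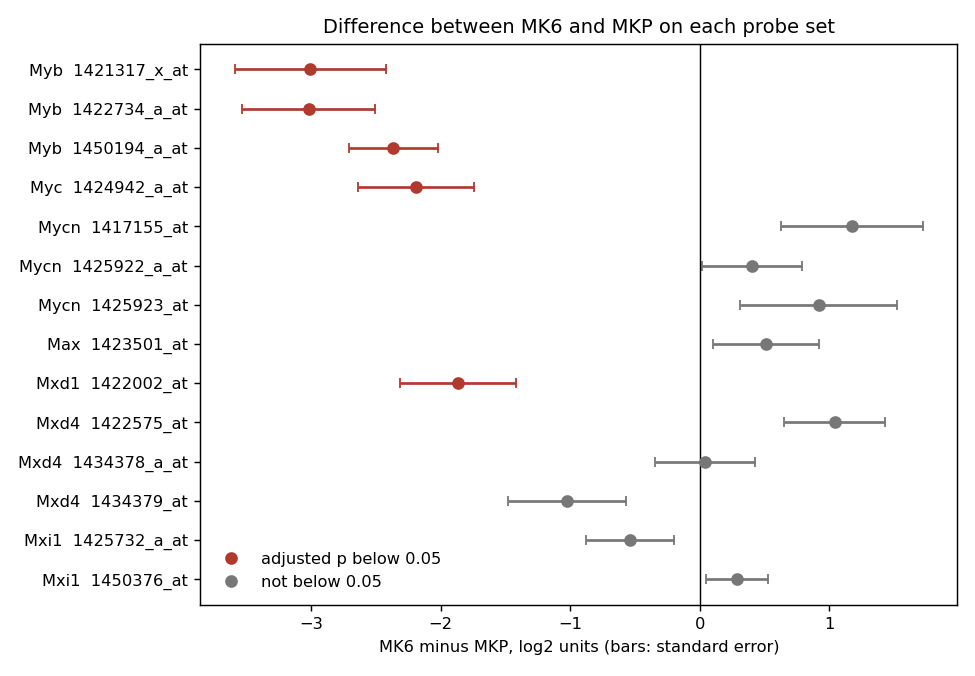
Difference between MK6 and MKP (x axis, log2 units) on each of the 14 probe sets of the 7 genes that passed the filter, with bars for 1 standard error and red points for an adjusted p below 0.05. The 3 Myb probe sets lie between −3.02 and −2.37, and the 3 Mxd4 probe sets spread from −1.02 to 1.04.

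Myc, which drives ribosome production and cell growth, was lower on both MK3 arrays than on either MKP array, as for 26.5% of all genes. At that step Myc did not pass the test. Its single probe set, 1424942_a_at, read 804 and 959 in MKP, 167 and 204 in MK3, 280 and 334 in MK4, and 74.6, 328 and 228 in MK6. Both MKP arrays were above all 7 later arrays, as for 9.27% of all genes. MK4 was above MK3 on every array, as for 17.5% of all genes, and the MK6 arrays overlapped both of these stages. Myc averaged 7.61 ± 1.005 log2 units in MK6 (SD, n = 3) and 9.80 ± 0.18 in MKP (SD, n = 2), a difference of −2.19 ± 0.45 (SE, adjusted p = 0.0202).

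The difference of Myc between MK3 and MKP was of like size, −2.16 ± 0.49 (SE), but did not pass the test at an adjusted p of 0.11. In that comparison 0 of the 7 members passed, 2 had an unadjusted p below 0.05 in limma, as did 9.91% of all genes, and 0.0532% of all genes passed. Without MK6 replicate 1, which is in neither stage but changes the shared spread and the genes tested, the difference stayed at −2.16 and its adjusted p was 0.0042. In MK6 against MKP, the adjusted p of Myc was 0.0572 without MK6 replicate 3, 0.16 without MKP replicate 1 and 0.19 without MKP replicate 2. With MK6 replicate 2 as the only MK6 array its difference was −1.38 (adjusted p = 0.0862).

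Markers of other cells also differed between MK3 and MKP, with 1 of 8 hepatocyte and 1 of 15 macrophage markers passing, both higher. Summed over 8 hepatocyte markers on the array, the scaled signal was 3284 to 4261 in MK3 and 629 to 680 in MKP, and it was 150 to 335 in MK6. Summed over 15 macrophage markers, it was 18691 to 34412 in MK3, against 11585 to 14273 in MKP. Transthyretin (Ttr), a liver-made plasma protein and the hepatocyte marker that passed, was 671 and 455 in MK3, against 45.4 and 29.3 in MKP. Ttr passed the filter only through its MK3 arrays. The summed signal of 13 megakaryocyte markers was 11124 and 25595 on the 2 MK3 arrays, against 11741 and 11278 in MKP, with 0 of 13 passing. The part of these cells in the Myc difference was not tested.

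Mycn, the paralogue of Myc that also pairs with Max, was not lower in MK6. Its probe set 1417155_at read 130 and 239 in MKP, 120 and 295 in MK3, 435 and 318 in MK4, and 170, 708 and 597 in MK6. MK3 overlapped MKP, and both MK4 arrays were above both MK3 arrays, as for 17.5% of all genes. MK6 replicate 1 lay within the MKP range, and replicates 2 and 3 lay above every earlier array. The difference between MK6 and MKP was 1.18 ± 0.55 (SE, adjusted p = 0.22). It rests on which MK6 arrays are kept: without MK6 replicate 1, the lowest of the 3, the difference was 1.79 with an adjusted p of 0.0263, and with replicate 1 as the only MK6 array it was −0.056. Of the other Mycn probe sets, 1425922_a_at differed by 0.40 and 1425923_at by 0.92 log2 units, and neither passed. Their signals were above the filter level on only 2 and 4 arrays.

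Max is the shared partner without which neither Myc nor the Mad proteins bind E-boxes. Its probe set 1423501_at read 168 and 137 in MKP, 180 and 345 in MK3, 211 and 296 in MK4, and 241, 368 and 121 in MK6. MK3 and MK4 lay above MKP on every array, as MK3 did for 19.4% of all genes. MK6 replicate 1 lay within the MK3 and MK4 ranges, replicate 2 above every earlier array and replicate 3 below every earlier array. None of the steps passed, and the difference between MK6 and MKP was 0.51 ± 0.41 (SE, adjusted p = 0.46).

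Among the Mad repressors, Mxd1 was lower in MK6. Its probe set 1422002_at read 85.3 and 91.0 in MKP, 21.0 and 45.9 in MK3, 91.8 and 27.0 in MK4, and 18.8, 7.9 and 13.7 in MK6. Only 3 of these 9 signals were above the filter level, both MKP arrays and MK4 replicate 1, and all MK6 signals were below it. Both MK3 arrays were below both MKP arrays, as for 26.5% of all genes, and that step did not pass (adjusted p = 0.48). MK4 replicate 1 was above both MKP arrays and replicate 2 lay between the MK3 arrays, so MK4 has no firm place. Every MK6 array was below every earlier one. Of all genes, 18.8% had every MK6 array below both MKP arrays, and 9.82% below both MK4 arrays. The mean of Mxd1 was 4.82 ± 0.28 log2 units in MK6 (SD, n = 3) and 6.69 ± 0.056 in MKP (SD, n = 2), a difference of −1.87 ± 0.46 (SE, adjusted p = 0.0401). Its size is set by the pseudocount of 15.2, since the MK6 signals lie near it, and was −2.22 with a pseudocount of 7.59 and −1.44 with one of 30.3. The adjusted p was 0.27 without MKP replicate 1, 0.26 without MKP replicate 2 and 0.10 without MK6 replicate 3.

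Mxd4 gave no single answer. Its probe set with the highest mean, 1434378_a_at, read 80.7 and 29.2 in MKP, 79.4 and 52.2 in MK3, 46.9 and 24.8 in MK4, and 46.1, 53.3 and 56.4 in MK6. All stages overlapped except MK4, which was below MK3, as for 12.7% of all genes. The difference between MK6 and MKP was 0.039 ± 0.39 (SE, adjusted p = 0.96). Probe set 1422575_at was higher on every MK6 array than on either MKP array, at 94.7, 46.9 and 75.8 in MK6 and 38.7 and 16.7 in MKP, with a difference of 1.04 (adjusted p = 0.13). Probe set 1434379_at was lower on every MK6 array, at 17.9, 27.1 and 4.0 in MK6 and 49.5 and 42.1 in MKP, with a difference of −1.02 (adjusted p = 0.19). These 2 probe sets correlated with each other at r = −0.51 over the 9 arrays.

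Mxi1 varied least of the 7 probe sets used. Probe set 1450376_at read 292 and 272 in MKP, 337 and 325 in MK3, 359 and 360 in MK4, and 431, 356 and 270 in MK6. MK4 was above MK3 and MK3 above MKP on each array, by 0.12 and 0.22 log2 units, and MK6 overlapped all of them. Of all genes, 17.5% had MK4 above MK3 on each array, and 19.4% had MK3 above MKP. For Mxi1, neither these steps nor MK6 against MKP passed (0.28 ± 0.23, SE, adjusted p = 0.47). The second Mxi1 probe set, 1425732_a_at, differed by −0.54 between MK6 and MKP (adjusted p = 0.34).

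Between successive stages, no step passed for any member. In MK4 against MK3, 0 of 7 passed and 0 had an unadjusted p below 0.05 in limma, where 0.0106% of all genes passed and 3.59% were below 0.05 unadjusted. In MK6 against MK4, 0 of 7 passed and 2 had an unadjusted p below 0.05, Myb at −1.67 ± 0.58 (SE) and Mxd1 at −1.25 ± 0.46 (SE), with adjusted p of 0.34 and 0.37, where 0.0213% of all genes passed and 10.5% were below 0.05 unadjusted. Without MK6 replicate 2, Myb passed in MK6 against MK4 (−2.30, adjusted p = 0.0463). With all later stages averaged against MKP, Myc was −1.94 ± 0.39 (SE, adjusted p = 0.0559) and Myb −1.91 ± 0.51 (SE, adjusted p = 0.13), and none of the 7 passed, although 3 had an unadjusted p below 0.05. Of all genes 0.309% passed there, and 14.9% were below 0.05 unadjusted. In the joint limma F test of the 3 steps, Myc had an adjusted p of 0.0632 and Myb of 0.0641, 0 of 7 passed, and 3 had an unadjusted p below 0.05. Of all genes 2.79% passed it, and 17.1% were below 0.05 unadjusted. Without MK6 replicate 1 or 2, Myb and Myc both passed in these last 2 tests. The 2 other Myb probe sets passed the joint test, 1422734_a_at with an adjusted p of 0.0444 and 1450194_a_at with 0.0281, while 1421317_x_at did not (0.0647), where 2.59% of probe sets passed.

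**Figure D3:**
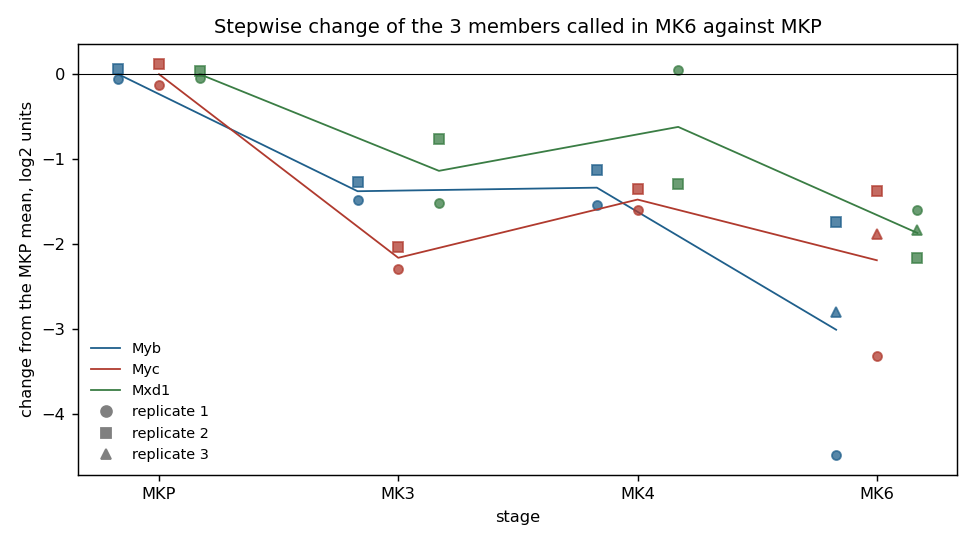
Change from the MKP mean (y axis, log2 units) at each stage for Myb, Myc and Mxd1, with 1 point an array and lines joining the stage means. Myc lies at −2.16 in MK3 and at −2.19 in MK6, while Myb lies at −1.38 in MK3 and at −3.01 in MK6, and Mxd1 has 1 MK4 array at the MKP level.

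Over the 9 arrays, Myb and Myc had r = 0.88, the highest of the pairs of members. Mxd1 had r = 0.64 with Myb and 0.61 with Myc, Mxi1 had r = −0.60 with Myb and −0.69 with Myc, and Max and Mxi1 had r = 0.66. The genes whose log2 values followed Myb most closely were Parp1 (r = 0.988), Uap1 (r = 0.987) and Dnmt1 (r = 0.986), which encode a DNA damage sensor, an enzyme of amino sugar synthesis and the maintenance DNA methyltransferase. The closest to Myc were Cd34, a surface marker of blood progenitors (r = 0.970), Pdxp (r = 0.963) and Rfc4, part of the clamp loader of DNA replication (r = 0.963). Cd34 read 78.8, 163 and 150 in MK6, against 321 and 448 in MKP. These correlations describe 9 arrays in 4 stages and carry no test.

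The closest to Mycn were Galnt1 (r = 0.965), Mtdh (r = 0.938) and Pla2g4a, the cytosolic phospholipase that releases arachidonic acid (r = 0.933). Max was closest to Rtn2 (r = 0.926) and to 2 genes known from platelets, Slc6a4, the serotonin transporter (r = 0.922), and Alox12, the platelet lipoxygenase (r = 0.921). Rtn2 passed the filter only through MK3 replicate 2 and MK6 replicate 2, at 54.2 and 52.4, the 2 arrays where Max was highest. For Mxd1 the closest genes were Sf3a2, Tomm40 and Atg3 (r = 0.946, 0.944 and 0.934), for Mxd4 Ube2j2, Otulin and Cenpo (r = 0.906, 0.903 and 0.897) and for Mxi1 Pip5k1b, Rnf19b and Btbd17 (r = 0.937, 0.928 and 0.926).

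Of 17 measured partners of Myc and Max, 1 rose and 1 fell in MK6 against MKP, where 2.76% of all genes rose and 2.94% fell. The 17 differences ran from −1.37 to 1.02 with a median of 0.071. Kat2a, an acetyltransferase that Myc recruits, fell by 1.37 log2 units (SE 0.29, adjusted p = 0.0242). Sin3b, a corepressor scaffold bound by Mad proteins, was higher by 1.02 ± 0.26 (SE, adjusted p = 0.0485). Sin3b read 1164, 1496 and 1714 in MK6, against 765 and 647 in MKP. Ruvbl2, an ATPase of chromatin complexes, was at −1.16 without passing (adjusted p = 0.0707). Neither call held without MKP replicate 1, MKP replicate 2 or MK6 replicate 3. The count that rose was also 0 with no filter, a common median, no variance trend, a robust prior or either MK4 array left out, and the count that fell was 0 with the probe sets of a gene averaged.

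None of 6 measured relatives and cofactors of Myb passed, with a median difference of −0.40. With the probe sets of a gene averaged, 2 of the 6 were lower and the median was −0.61. With a common median 1 was lower, and without MK6 replicate 1 it was also 1. The median was −0.16 without MKP replicate 1, −0.66 without MKP replicate 2, −0.23 without MK6 replicate 1 and −0.71 without MK6 replicate 3. The largest were Men1, which encodes menin, through which Myb binds MLL, at −0.90 (adjusted p = 0.066), Mybl2 at −0.84 (adjusted p = 0.0876) and Mybbp1a at −0.56 (adjusted p = 0.28). None of 6 measured enzymes of Myc turnover passed either, with a median of −0.021. Among them Huwe1, a ubiquitin ligase, was at −0.61, Stub1 at −0.54 and Fbxw7, the F-box protein that targets phosphorylated Myc, at 0.48.

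Genes reported to be activated by Myb were lower in MK6 in 7 of 14 measured cases and higher in none, where 2.94% of all genes fell. The median difference of the 14 was −1.16, against 0.126 for all genes. The largest were 3 genes of neutrophil granules. Elastase (Elane) read 31.8, 620 and 36.6 in MK6, against 3666 and 3315 in MKP, and differed by −4.92 ± 0.86 (SE, adjusted p = 0.0119). Proteinase 3 (Prtn3) differed by −3.52 and myeloperoxidase (Mpo) by −3.44, with adjusted p of 0.0177 and 0.0369. MK6 replicate 2 was the highest of the MK6 arrays for all 3, as it was for Myb on 1421317_x_at and 1422734_a_at. On the Myb probe set 1450194_a_at, replicate 3 was the highest (74.6, against 67.5 on replicate 2).

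The other 4, named after their values were seen, were the granulocyte repressor Gfi1 (−3.19), Myc itself, Cd34 (−1.49) and Kit, the receptor for stem cell factor (−1.64). Elane, Prtn3, Mpo and Gfi1 are also on the list of neutrophil markers, so that 3 of the 10 measured genes outside that list were lower. Of the 14 neutrophil markers 7 were lower, with a median of −2.14, among them the granule protease Ctsg at −4.24. Their summed signal was 15396, 30346 and 7209 in MK6, against 50148 and 41123 in MKP, and their part in the Myb difference was not tested. The count of 7 became 0 without either MKP array, 2 without MK6 replicate 3, 10 without MK6 replicate 2 and 5 with MK6 replicate 2 alone, where the median was −0.997. Of the 14 reported Myb-activated genes, 0 passed without either MKP replicate in turn, 2 without MK6 replicate 3 and 3 with MK6 replicate 2 alone.

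Genes reported to be activated by Myc were lower in MK6 in 7 of 30 measured cases and higher in none, where 2.94% of all genes fell. All 30 differences were below 0, with a median of −0.82 against 0.126 for all genes. Eif4a1, an RNA helicase of translation initiation, read 982, 1981 and 811 in MK6, against 3672 and 3548 in MKP, and differed by −1.62 ± 0.34 (SE, adjusted p = 0.0231). Nolc1, a nucleolar phosphoprotein, differed by −1.50 ± 0.32 (SE, adjusted p = 0.0241). Nop58, a core protein of the snoRNA particles that modify ribosomal RNA, was at −1.59 without passing (adjusted p = 0.0781). The other 5 that fell, named after their values were seen, were the ribosomal RNA methyltransferase Fbl (−1.44), the nucleotide synthesis enzymes Gart (−1.37), Cad (−1.03) and Umps (−0.86), and spermidine synthase Srm (−1.34).

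In MK3 against MKP, 28 of these 30 genes were below 0, with a median of −0.57 against −0.039 for all genes. Of the 30, 0 passed there, where 0.0532% of all genes passed, and Myc itself did not pass. The part of Myc in these differences was not tested. MK3 against MKP and MK6 against MKP share the MKP arrays. The count in MK6 against MKP depends on single arrays. It was 0 without MKP replicate 1 or 2, 2 without MK6 replicate 3, 14 without MK6 replicate 2 and 3 with a common median as the scaling. With MK6 replicate 2 as the only MK6 array 0 passed, and 26 of the 30 were below 0.

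Genes reported to be repressed by Myc were higher in MK6 in 3 of 13 measured cases and lower in none, where 2.76% of all genes rose. The median difference of the 13 was 0.72, against 0.126 for all genes. Cdkn2b, an inhibitor of cyclin D kinases, read 70.0, 73.3 and 86.7 in MK6, against 6.5 and 9.7 in MKP, and rose by 1.98 ± 0.34 (SE, adjusted p = 0.0113). Both MKP signals are below the pseudocount, which sets the size: it was 2.43 with a pseudocount of 7.59 and 1.47 with one of 30.3. Cdkn2b passed the filter only through its MK3 and MK6 arrays, so its place in this count follows in part from the filter. Gadd45a, a growth arrest and DNA damage gene, read 586, 443 and 352 in MK6, against 120 and 137 in MKP, and rose by 1.70 ± 0.34 (SE, adjusted p = 0.0190). Cdkn1a, which encodes the cell cycle inhibitor p21 and is named after its value was seen, rose by 1.15 (adjusted p = 0.0194). Tmeff1 was at 1.58 (adjusted p = 0.0855), and it passed the filter only through MK6 replicates 1 and 3, at 80.1 and 81.9. The count was 0 without MKP replicate 1 or 2, 1 without MK6 replicate 3 and 0 with MK6 replicate 2 alone.

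**Figure D4:**
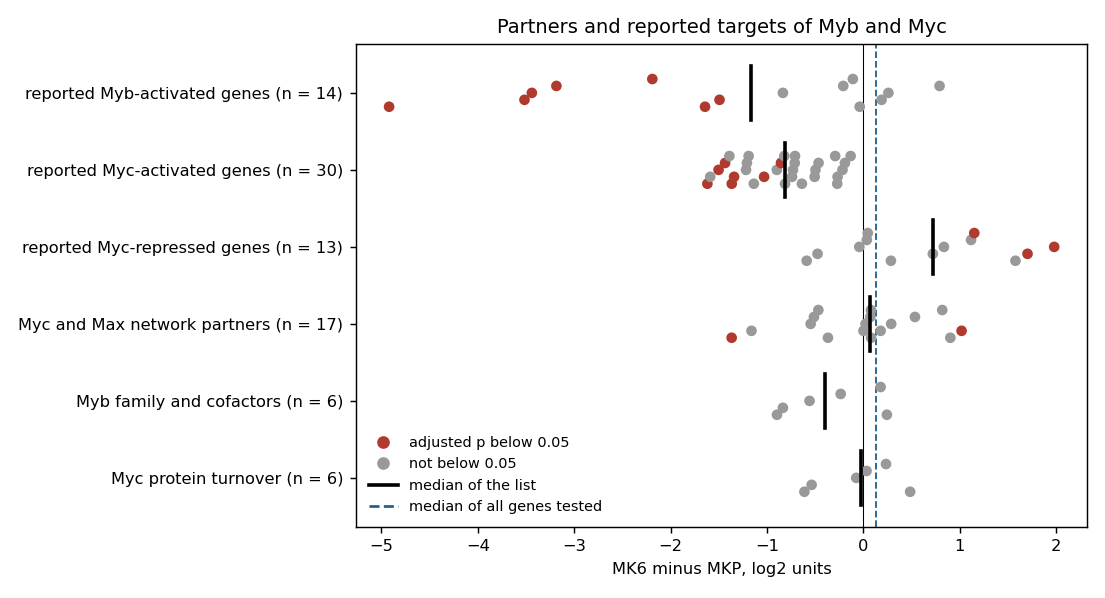
Difference between MK6 and MKP (x axis, log2 units) of each measured gene in 6 lists of reported targets, partners and regulators, with 1 point a gene, red for an adjusted p below 0.05, a black bar at the list's median and a dashed line at the median of all genes (0.126). The medians are −1.16 for reported Myb-activated, −0.82 for reported Myc-activated and 0.72 for reported Myc-repressed genes.

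The other marker lists gave these counts in MK6 against MKP, where 2.76% of all genes rose and 2.94% fell. Of 13 megakaryocyte markers 2 rose, Vwf by 1.90 and Itga2b (CD41) by 1.53, and Itgb3 was at −2.01 without passing. The count of 2 became 0 with a common median, without either MKP array, without either MK4 array or without MK6 replicate 3. Of 15 macrophage markers 3 rose and 2 fell, led by Mmp12 (5.05), Cybb (−2.22) and Cd68. Cd68 read 2651, 1277 and 1126 in MK6, against 400.0 and 359 in MKP. Mmp12 passed the filter only through the later arrays, and read 5.7 and 11.6 in MKP. None of 4 erythroid markers passed, led by Hba-a1 (1.30), Slc4a1 (−0.98) and Epor (0.58). Hba-a1 passed the filter only through MK6 replicates 1 and 3, at 78.2 and 96.1. Of 8 mast cell and basophil markers 1 fell (Hdc, −3.14), and the median was −0.033. Fcer1a (1.34) and Mcpt8 (−0.95) did not pass the test, and Fcer1a passed the filter only through the MK6 arrays. Of 6 lymphocyte markers 2 fell, Ptprcap by 2.12 and Nkg7, which read 79.3, 182 and 167 in MK6, against 544 and 632 in MKP. Ms4a1 was at 1.33 without passing the test, and passed the filter only through the later arrays. Of 8 hepatocyte markers 1 fell, Afp, at 129, 32.2 and 43.7 in MK6 and 261 and 301 in MKP. Fgb (−1.82) and Ttr (−1.30) did not pass. Of 7 fibroblast and endothelial markers 1 rose (Col1a2, 1.02), while Dcn (−0.70) and Col1a1 (0.60) did not pass. Without MKP replicate 1 no gene of these 7 lists passed, and without MKP replicate 2 only 1 macrophage marker did, which was higher. Without MK6 replicate 3, no hepatocyte, fibroblast or endothelial marker passed, and 2 macrophage markers rose and 0 fell. Without MK6 replicate 2, 1 erythroid marker rose.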

How the data were processed

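RNA of the 9 samples was hybridised to MOE430A arrays. The authors deposited linear signal intensity values, which the submitters' processing notes credit to MAS5, in a version not given in the sources used here. Probe sets were named through the platform annotation and current RefSeq symbols: of 22690, 64 were controls, 20380 had 1 gene, 691 several and 1555 none. The deposited intensity values were multiplied to a common 2% trimmed mean and turned into log2(signal + 15.2), where 15.2 is their 20th percentile. A probe set was kept where 2 or more arrays exceeded 46.7, the 40th percentile, and the probe set with the highest mean stood for its gene. limma 3.58.1 in R 4.3.3 fitted 1 mean per stage over all 9 arrays (5 residual degrees of freedom, eBayes with an intensity trend, Benjamini-Hochberg adjustment over 9397 genes). The fit was tested on simulated data with known changes, where the noise was independent and, for a gene, of the same size at all stages. The simulation held no array-wide differences, so it cannot show how far the calls depend on single arrays. The number of arrays limits the precision.

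The members, the 14 gene lists and the tests were chosen with earlier results of these data known. The text names all members, the 3 genes of each list with the largest MK6 minus MKP difference in either direction and the 3 genes closest to each member. In MK3 against MKP, Ttr was named after its values were seen. The lists are partners of Myc and Max, relatives of Myb, Myc turnover, 3 lists of reported targets and 8 lists of cell type markers. Alternatives changed the pseudocount, filter, scaling, probe set rule and variance model, or left out arrays.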

Additional observations from a re-analysis of the deposited data

How the results depend on the processing

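In MK6 against MKP, 3 members passed under each of the 9 settings of pseudocount, scaling, probe set rule, variance model and no filter. Under the stricter filter, which Mxd1 does not pass, Myb and Myc did. Leaving out 1 array gave 0 to 4, with Mycn as the added member. With MK6 replicate 2 alone, a setting chosen after seeing the data, 1 member passed in MK6 against MKP, 2 in MK3 against MKP, 2 in all later stages against MKP and 1 in the joint test of the 3 steps. With MK6 replicate 1 alone, 2 members passed in MK3 against MKP, 2 in MK6 against MK4, 2 in all later stages against MKP and 2 in the joint test. Averaging all probe sets of a gene gave 1 in the joint test (Myb, adjusted p = 0.0370). Leaving out 1 array gave 0 to 1 in MK3 against MKP, 0 to 1 in MK6 against MK4, 0 to 2 in all later stages against MKP and 0 to 2 in the joint test. No called difference changed sign. Over all 21 alternatives Myb passed in 18 and Myc in 17, and Mxd1 passed in 15 of 20. The cause was not tested.

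Over all genes, 535 passed in MK6 against MKP, and 375 to 1003 with other settings, 3 to 1094 without 1 array, 1829 with MK6 replicate 1 alone and 47 with MK6 replicate 2 alone. The 5 in MK3 against MKP became 4 to 11, 0 to 85, 58 and 59 in the same order of alternatives. The 1 in MK4 against MK3 became 0 to 2, 0 to 1, 4 and 4. The 2 in MK6 against MK4 became 1 to 4, 0 to 120, 343 and 0. The 29 in all later stages against MKP became 12 to 50, 0 to 133, 762 and 39. The 262 in the joint test became 99 to 376, 4 to 390, 675 and 25. The lower share of the 535 calls was 51.6%, and it was 61.8% over single probe sets. The median of all genes was 0.126 with the trimmed mean, 0.092 with quantile normalization and 0.0060 with a common median. No paired analysis was possible because the labels number only MK6 arrays.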

Other observations

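One Mxd4 probe set, 1422574_at, did not pass the filter and was not tested. Its scaled signals were 37.3, 26.4 and 49.5 in MK6, against 8.4 and 5.3 in MKP, and over the 9 arrays it correlated at r = 0.87 with probe set 1422575_at and at r = −0.54 with probe set 1434379_at of the same gene.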
